A study of Mus musculus with 2 samples.

Results

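Rbfox1, Rbfox2, Rbfox3, Nova1, Nova2, Elavl2, Elavl3, Elavl4, Srrm3 and Srrm4 are 10 genes for RNA-binding splicing regulators that are best known from neurons. They were chosen by name, with earlier results of these data known, and they are 10 of the 22238 protein-coding genes in the annotation of mm9. SpliceTrap exon trios of 8 of them passed the read minimum, with 70 distinct segments. Their levels and the inclusion of their own exons were examined in N2A cells, a mouse neuroblastoma line, after knockdown of Ptbp1. The 2 RNA-seq libraries came from cells transfected with a control shRNA or with an shRNA against Ptbp1 and collected 3 days later, 1 library for each. The 2 libraries share the cell line, the transfection reagent and the culture time, and neither the labels nor the methods describe a sort of transfected cells. Throughout, paired values give the control library first and the knockdown library after it. With 1 library per condition no difference has a replicate check, and every interval covers counting error only.

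In the developing nervous system PTBP1, a repressor that binds pyrimidine-rich RNA, gives way to its neuronal homolog PTBP2, and many exons skipped in other cells become included. The Rbfox proteins bind GCAUG and promote or repress exons depending on where they bind. Nova proteins bind clusters of YCAY, the neuronal Elavl (Hu) proteins bind U-rich RNA and act on both splicing and mRNA stability, and SRRM4, with its relative SRRM3, promotes the inclusion of neuronal microexons. Several of these regulators control exons in their own transcripts, and both levels and exons were examined.

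The knockdown was visible in the targeted gene. Ptbp1 had 545.7 and 183 RPM, splice junction reads per 1000000 junction reads of the library, a log2 ratio of -1.58 (95% exact interval -1.61 to -1.54). The libraries held 74382387 and 58295142 reads on 406367 distinct splice junctions. The median of 10457 genes with at least 1 RPM in either library was 0.16 on the log2 scale, so ratios of junction reads are to be read against 0.16 and not against 0. In bulk RNA, fewer cells that express a gene and less RNA per cell cannot be told apart. Of the fixed neuroblastoma and neuron markers with at least 1 RPM, 3 of 11 were past 2-fold up and 0 down, with a median of 0.42. These were Gata3, Dbh and Th, a transcription factor and 2 enzymes of noradrenaline synthesis. Of all genes at that level, 5.96% were past 2-fold up and 0.0956% down. Among the same markers Stmn2 (-0.43), Tubb3 (-0.08), Syp (-0.04) and Chga (-0.03) had log2 ratios below 0. For Gata3 the RefSeq transcripts alone went the other way, from 8.85 to 2.72 ppm, while its assembled transcripts went from 1.45 to 16 ppm. The summed junction reads of fibroblast markers were 0.618 and 2.08 RPM, and Col1a1 was past 2-fold up. Astrocyte markers summed to 0.0941 and 0.0343 RPM, oligodendrocyte markers to 2.37 and 1.73, and leukocyte markers to 0.255 and 0.394, with no junction read for Lum, Aqp4, Slc1a3, Ptprc and Cd3e. The skeletal muscle list summed to 267 and 303, nearly all of it from Myh3, while Myog had no junction read. The part of these cells or transcripts in the results below was not tested.

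Sequences are shown for the 4 cassette exons of the members that passed 5 points of PSI (percent spliced in), for the matching exon of Elavl4, and for the short exons of Srrm3 and Srrm4, because the splicing results turn on them. They were read from the NCBIM37 (mm9) genome on the transcribed strand, 5′ to 3′, with 100 bases of the upstream intron in lower case and the exon in capitals.
Rbfox2 51 nt exon, chr15:77061817-77061867, minus strand: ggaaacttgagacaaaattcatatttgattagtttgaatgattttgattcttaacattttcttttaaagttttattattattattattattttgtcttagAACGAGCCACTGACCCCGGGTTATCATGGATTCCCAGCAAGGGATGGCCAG
Rbfox2 40 nt exon, chr15:76924881-76924920, minus strand: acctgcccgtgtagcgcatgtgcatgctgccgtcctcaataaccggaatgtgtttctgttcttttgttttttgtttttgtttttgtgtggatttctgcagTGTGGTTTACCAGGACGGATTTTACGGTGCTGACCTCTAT
Rbfox2 43 nt exon, chr15:76922242-76922284, minus strand: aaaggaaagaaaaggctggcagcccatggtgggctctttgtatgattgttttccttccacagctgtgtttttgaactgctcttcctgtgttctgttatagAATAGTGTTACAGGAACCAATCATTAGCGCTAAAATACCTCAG
Elavl2 39 nt exon, chr4:90920832-90920870, minus strand: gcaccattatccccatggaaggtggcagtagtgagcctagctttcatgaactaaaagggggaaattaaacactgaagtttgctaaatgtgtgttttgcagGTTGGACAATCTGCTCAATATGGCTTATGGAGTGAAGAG
Elavl4 39 nt exon, chr4:109882345-109882383, minus strand: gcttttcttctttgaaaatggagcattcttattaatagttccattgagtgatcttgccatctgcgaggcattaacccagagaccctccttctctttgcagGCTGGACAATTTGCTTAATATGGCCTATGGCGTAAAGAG
Srrm4 16 nt exon, chr5:116904682-116904697, minus strand: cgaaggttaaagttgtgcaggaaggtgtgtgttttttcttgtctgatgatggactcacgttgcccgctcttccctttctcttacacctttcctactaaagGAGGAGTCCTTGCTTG
Srrm3 20 nt exon, chr5:136342997-136343016, plus strand: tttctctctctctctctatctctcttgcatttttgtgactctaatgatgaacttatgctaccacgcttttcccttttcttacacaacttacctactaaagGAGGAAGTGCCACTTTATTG

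Each printed intron ends in AG and each exon is followed by GT. The annotation marks the first 5 of these exons as coding, the Srrm3 exon as partly coding, and has no exon of Srrm4 at the 16 nt position. Lengths of 51 and 39 are multiples of 3, and 40, 43, 16 and 20 are not. The 39 nt exons of Elavl2 and Elavl4 shared 33 of 39 bases (84.6%), whereas the 100 bases before them, compared position by position without gaps, shared 21. The Srrm3 and Srrm4 exons open with the same 5 bases and follow the same 10 intron bases, so that a run of 15 bases, cctactaaagGAGGA, is common to both.

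TCTT, a pyrimidine motif of the kind that PTBP1 binds, was searched on the transcribed strand of these 100 bases, with overlaps counted. It occurs 5 times before the Elavl4 exon, 3 times before the Rbfox2 51 nt and Srrm4 exons, 2 times before the Rbfox2 43 nt and Srrm3 exons, once before the Rbfox2 40 nt exon, and not before the Elavl2 exon. Among 6558 cassette exons of all genes, 65.1% held it at least once, 29.4% at least 2 times, 11.4% at least 3 times and 3.96% at least 4 times. CTCTCT was present before the Srrm3 exon alone of the 7, and in 11.2% of all. C and T made up 44% of the bases before the Elavl2 exon and 72% of those before the Srrm3 exon, against a median of 56%. The Rbfox motif TGCATG lay within 250 bases upstream of the Rbfox2 40 nt exon and within 250 bases downstream of the Elavl2 exon, windows that hold it in 9.62% and 12.2% of all cassette exons. Within 250 bases upstream of a further Rbfox2 exon, of 93 nt at chr15:76936007-76936099, it occurred 3 times, and within 250 bases downstream 1 time. It occurred at least 3 times upstream of 0.168% of all cassette exons. These matches describe letters and not binding.

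Of the genes with a value above 0 in both libraries, none was past 2-fold in either direction, among 8 by RefSeq transcripts and 9 by RefSeq plus assembled transcripts, or among 8 with more than 3 junction reads. Srrm3 is not in the RefSeq count, since its transcript was listed at 0 in the control library and at 40.4 ppm in the knockdown library, nor is Rbfox1, which was at 0 in both. Rbfox3, near 0 in both libraries, passed 2-fold without a pseudocount or by summed FPKM. The background was all genes above 0 in both libraries with at least 1 ppm, or 1 RPM for junction reads, in either. Of these, 9.14% were past 2-fold up and 4.8% down in RefSeq transcripts, and 5.96% up and 0.0956% down in junction reads. The members were counted without this floor, and with it 0 were past 2-fold in RefSeq transcripts. Of the 8 genes with more than 3 junction reads in each library, 7 were higher in the knockdown library, as were 69% of all genes, with a median log2 ratio of 0.45 against 0.16 for all genes. At 1.3-fold, a smaller size chosen after the values were seen, 5 of the 8 were up, against 29.4% of all genes. RefSeq abundance is given in ppm, the bases assigned to the gene's RefSeq transcripts per 1000000 assigned bases of the library, and its bounds combine the outermost Cufflinks bounds of both libraries.

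**Figure D1:**
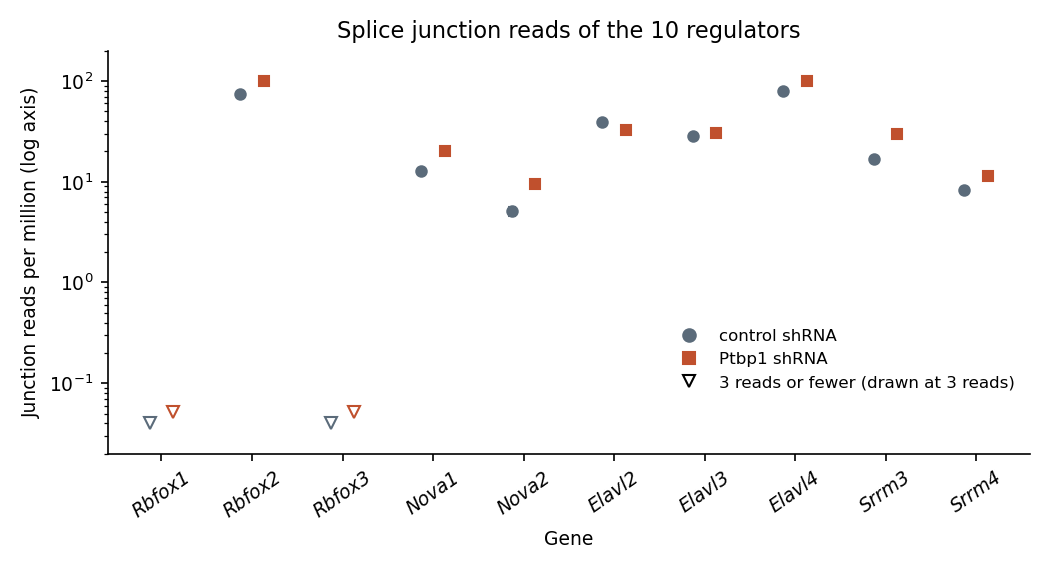
Splice junction RPM (log axis) of the 10 genes in the control library (grey circles) and the knockdown library (orange squares), with exact 95% Poisson intervals, mostly smaller than the symbols. Rbfox1 and Rbfox3 had 3 reads or fewer and are drawn as open triangles at 3 reads, and Elavl2 is the only gene of the other 8 that is lower in the knockdown library.

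Among the Rbfox genes only Rbfox2, the widely expressed member, was detected above background. Rbfox1 (ENSMUSG00000008658.8, chr16:5884886-7412573, plus strand), found in neurons, heart and muscle, had 0 reads on 55 junctions in both libraries, which allows up to 0.0403 and 0.0515 junction RPM. Rbfox3 (ENSMUSG00000025576.10, chr11:118351074-118772911, minus strand), whose product is the neuronal marker NeuN, had 1 junction read in each library on 39 junctions, and 0.0098 and 0.046 ppm. Assembled transcripts in the Rbfox3 span summed to 2.23 and 2.24 ppm, all of them between 118727255 and 118735435 of chromosome 11. No fold is given for either gene. Rbfox2 (ENSMUSG00000033565.9, chr15:76909420-77137483, minus strand) had 5490 junction reads (73.8 RPM) and 5842 (100.2 RPM). The log2 ratio was 0.44 (0.39 to 0.49) by junction reads, 0.42 by RefSeq transcripts (167 and 223 ppm, bounds -0.58 to 1.38) and 0.22 with assembled transcripts. All 3 measures were above 0, and the bounds of the RefSeq value span 0.

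Both Nova genes were higher in the knockdown library. Nova2 (ENSMUSG00000030411.8, chr7:19510698-19551031, plus strand), the main Nova protein of the cortex, had 378 junction reads (5.08 RPM) against 553 (9.49 RPM), a log2 ratio of 0.90 (0.71 to 1.09), the largest of the 10 genes by this measure. Its RefSeq transcript had 56.1 and 78.0 ppm, a log2 ratio of 0.47 (bounds 0.33 to 0.63), and with assembled transcripts the value was 0.38. Nova1 (ENSMUSG00000021047.6, chr12:47795504-47919762, minus strand), the member prominent in hindbrain and spinal cord, had 960 junction reads (12.9 RPM) against 1178 (20.2 RPM), a log2 ratio of 0.65 (0.52 to 0.77). Its single RefSeq transcript carried only 9.58 and 12.3 ppm, a log2 ratio of 0.35 (bounds 0.03 to 0.68), and most of the locus was in assembled transcripts, which brought the total to 42.5 and 65.4 ppm, a log2 ratio of 0.62.

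The 3 neuronal Elavl genes did not move together. Elavl2 (HuB, ENSMUSG00000008489.10, chr4:90917454-91066675, minus strand) was lower in the knockdown library, with 2949 junction reads (39.6 RPM) against 1905 (32.7 RPM), a log2 ratio of -0.28 (-0.36 to -0.20). RefSeq transcripts gave 124 and 99.4 ppm, a log2 ratio of -0.31 (bounds -0.72 to 0.10), and -0.43 was found with assembled transcripts. Elavl2 lay below the median of all genes by RefSeq transcripts (0.0) and by junction reads (0.16), and no such median was computed with assembled transcripts. Elavl4 (HuD, ENSMUSG00000028546.11, chr4:109876327-110024516, minus strand) had 5916 junction reads (79.5 RPM) against 5889 (101 RPM), a log2 ratio of 0.34 (0.29 to 0.40), with 0.38 by RefSeq transcripts (bounds -0.02 to 0.80) and 0.24 with assembled ones. Elavl3 (HuC, ENSMUSG00000003410.7, chr9:21819449-21856467, minus strand) had 2095 junction reads (28.2 RPM) against 1796 (30.8 RPM), a log2 ratio of 0.13 (0.04 to 0.22), which is below the 0.16 of the median gene. Its RefSeq transcript alone went from 30.4 to 50.3 ppm, a log2 ratio of 0.72 (bounds 0.48 to 1.00). With the assembled transcripts of the same locus, 6 and 4 in number, the value was 0.30, so its place relative to the median gene depends on the measure. These assembled transcripts include unspliced stretches, among them 1 of 4451 nt with 12.6 ppm in the control library and 1 of 6535 nt with 30.2 ppm in the knockdown library.

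Both SRRM genes were higher in the knockdown library, by an amount that depended on the transcripts counted. Srrm3 (ENSMUSG00000039860.12, chr5:136282760-136350642, plus strand) had 1244 junction reads (16.7 RPM) against 1741 (29.9 RPM), a log2 ratio of 0.84 (0.73 to 0.94), which is 1.79-fold. This pooled ratio was not even along the gene. Raw reads were 84 and 98 on the junction into the 243 nt exon, 93 and 152 into the 30 nt exon, and 74 and 70 into the 63 nt exon. Near the 3′ end they were 94 and 189 into the 138 nt exon, and 39 and 148 out of it. Its RefSeq transcript NM_021403 is listed at 0 in the control library and had 40.4 ppm in the knockdown library. The same locus held 49.4 and 31.3 ppm of assembled transcripts, and all transcripts together gave 49.4 and 71.7 ppm, a log2 ratio of 0.54. In each library the assembled transcripts include an unspliced stretch inside the intron between the 178 and 347 nt exons. It held 12.4 ppm in the control library and all of the 31.3 ppm in the knockdown library. The value of 0.54 thus mixes intron RNA with spliced transcripts. A listing at 0, or no listing, in the control library was seen in 2.48% of genes with at least 1 ppm in the knockdown library. Srrm4 (ENSMUSG00000063919.6, chr5:116889281-117041826, minus strand) had 611 junction reads (8.21 RPM) against 658 (11.3 RPM), a log2 ratio of 0.46 (0.30 to 0.62). Its RefSeq transcript had 18.2 and 33.9 ppm, a log2 ratio of 0.89 (bounds 0.57 to 1.24), but all transcripts together had 32.1 and 37.5 ppm, a log2 ratio of 0.22.

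**Figure D2:**
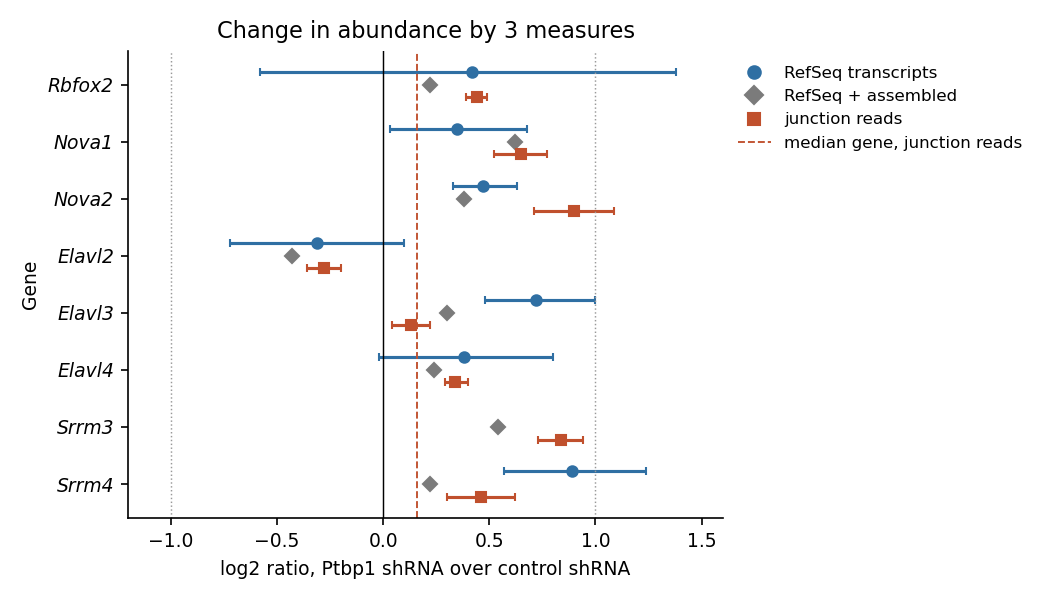
Log2 ratio of the knockdown over the control library for the 8 detected genes, by RefSeq transcripts with Cufflinks bounds (blue circles), by RefSeq plus assembled transcripts (grey diamonds) and by junction reads with exact 95% intervals (orange squares). The dashed line is the median gene by junction reads (0.16) and dotted lines mark 2-fold. No drawn point reaches 2-fold and Elavl2 lies left of 0 by all 3 measures. Srrm3 has no RefSeq point because its transcript is listed at 0 in the control library and at 40.4 ppm in the knockdown library.

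Per length, the mean read depths of all transcripts of the locus, summed and given per 1000000000 assigned bases, ranked the genes. Elavl4 was highest, with a depth of 60.3 and 71.3. Elavl2 (39.6 and 25.4), Rbfox2 (28.7 and 35.1), Elavl3 (22.5 and 24.5) and Nova1 (15.3 and 22.9) followed. Srrm3 (11.9 and 13.1), Nova2 (7.89 and 10.2) and Srrm4 (5.04 and 5.77) were the lowest of the detected genes. Elavl2 came next after Elavl4 in the control library and after Rbfox2 in the knockdown library. There is no replicate spread to say which neighbours differ, and short or unspliced fragments assembled by Cufflinks add to these sums. In the control library a Nova1 fragment of 391 nt had an unscaled depth of 102.2, and the Nova1 RefSeq transcript 25.9. The order was not recomputed without such fragments.

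Other splicing regulators were a list of 25 genes, written with earlier results of these data known. Of these, 21 had enough junction reads, 2 were past 2-fold up and 1, Ptbp1 itself, was past 2-fold down. The median log2 ratio was 0.15. The genes up were Ptbp2, with 76.4 and 184 junction RPM (log2 ratio 1.27), and Celf5, with 3.83 and 9.50 (1.31). The ubiquitous relative of the neuronal Elavl genes, Elavl1 (HuR), had 74.1 and 61.6 junction RPM, a log2 ratio of -0.27 (-0.33 to -0.21).

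Splicing inside the members was read from SpliceTrap, which places reads on trios of neighbouring exons and estimates the PSI of the middle segment. Of 166 trios in the 10 genes, 105 had at least 20 reads in each library. They covered 70 distinct segments in 8 genes, counted as 73 because 3 of them are listed in 2 classes of the database. None of the 32 trios of Rbfox1 and the 28 of Rbfox3 passed. PSI was higher by 5 points or more in the knockdown library for 7 of the 73 and lower for 4. The Elavl2 39 nt exon and the Rbfox2 40 nt exon count once in each of their 2 classes, so that 6 distinct segments of 70 were higher and 3 lower. Of the distinct segments, Rbfox2 held 2 of the higher and all 3 of the lower ones, Elavl2 held 2 of the higher ones, and Srrm3 and Srrm4 held 1 each. Nova1, Nova2, Elavl3 and Elavl4 had none.

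Of the 9 cassette exons, 2 were higher by 5 points or more and 2 were lower, where 16.1% of 6565 cassette exons of all genes were higher and 14.6% lower. With the further demand that the 95% Newcombe interval of the difference in junction reads lay on the same side of 0, 1 was higher and 2 were lower, against 8.87% and 6.34% of all. Of the 5 alternative acceptor segments 1 was higher and 0 lower, against 11.3% and 9.88% of 3309. Of the 59 segments in the constitutive class 4 were higher and 2 lower, against 1.34% and 1.57% of 108639. The medians of the members were -0.2, -0.1 and 0.0 points, and the medians of all exons were 0.0 in each class. With so few members these shares show nothing particular to the group.

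**Figure D3:**
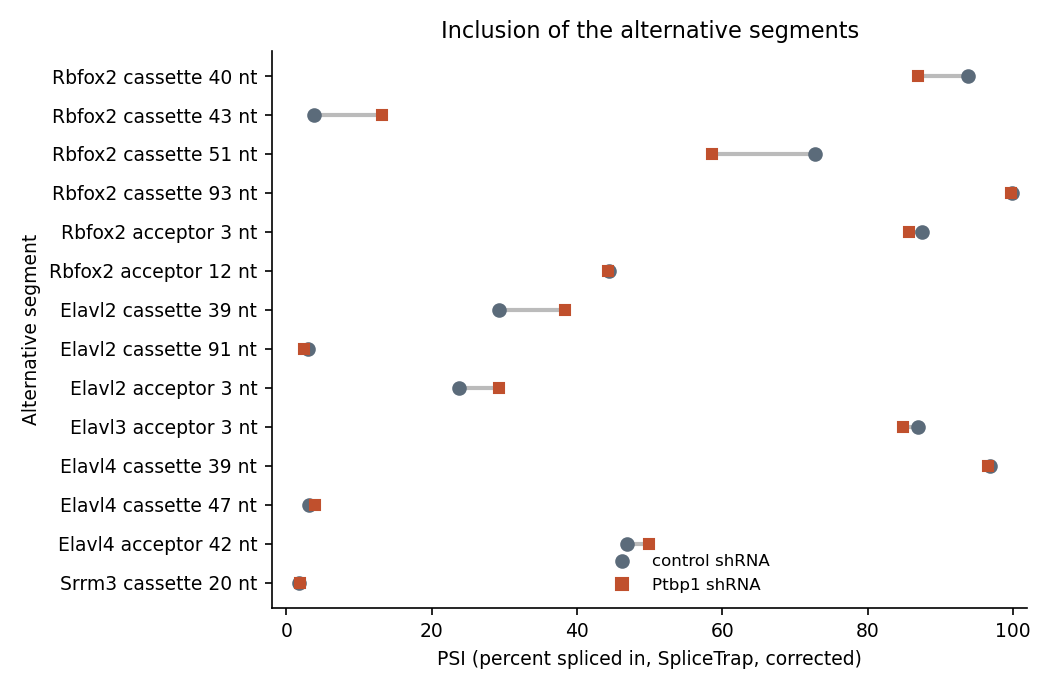
PSI after SpliceTrap's correction for the 14 alternative segments of the members, in the control library (grey circles) and the knockdown library (orange squares), joined by a line. The longest lines belong to the Rbfox2 exons of 51, 43 and 40 nt and the Elavl2 exon of 39 nt, and 5 of the 9 cassette exons moved by less than 3 points.

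By PSI the largest difference among the members' cassette exons was in the N-terminal part of Rbfox2, while by left junction reads that of the Elavl2 39 nt exon was larger. PSI of the 51 nt coding exon was 72.7 and 58.6, a difference of -14.1 points. Its left and right inclusion junctions held 139 and 49 control reads, with 52 on the skipping junction, and 119 and 52 knockdown reads, with 84 on the skipping junction. Over all genes the genomic left junction held 70.4% of the inclusion reads of exons of 31 to 60 nt in both libraries and 50.1% of those of exons over 100 nt. How reads that cross both junctions were assigned is not given in the sources used here, and single exons depart from these shares, as with 90 and 90 reads for the Elavl2 exon. Inclusion was computed from the left junction, and the mean of both junctions is given beside it. It was 72.8% (95% Wilson interval 66.1 to 78.6) and 58.6% (51.7 to 65.2), a difference of -14.2 points (Newcombe interval -23.2 to -4.77), and -13.9 by the mean of both junctions. A two-sided Fisher's exact test, which compares these libraries and not the conditions, gave p = 0.00412, and p = 0.037 after Benjamini-Hochberg adjustment over 6477 cassette exons. Inclusion of this exon was thus lower in the knockdown library.

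This 51 nt exon belongs to transcripts that begin far upstream, and a second promoter feeds the same next exon. The acceptor at 76963371 of chromosome 15 received reads from the downstream first exon (76983960 to 76984242), from the 51 nt exon, and from the upstream first exon (77136794 to 77137483) when the 51 nt exon was skipped. The downstream first exon contributed 142 and 250 reads, 1.91 and 4.29 RPM, which is 2.25-fold higher (95% exact interval 1.82 to 2.78). The 51 nt exon contributed 139 and 119 reads, 1.09-fold (0.848 to 1.41), and the skipping junction 52 and 84, 2.06-fold higher (1.44 to 2.97). The share of the downstream first exon was 42.6% of 333 reads and 55.2% of 453, a difference of 12.5 points (5.47 to 19.4), and the share of the 51 nt exon differed by -15.5 points (-22.1 to -8.78). RefSeq and assembled transcripts over 1000 nt grouped by their start had 110 and 150 ppm for the downstream start and 81.8 and 73.0 ppm for the upstream start. The summed bounds of the groups overlap between the libraries. For the upstream start, ppm and junction reads differed in direction. Junction RPM was 1.87 and 2.04 from the 51 nt exon, with a fold interval that spans 1, and 0.699 and 1.44 from the skipping junction.

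**Figure D4:**
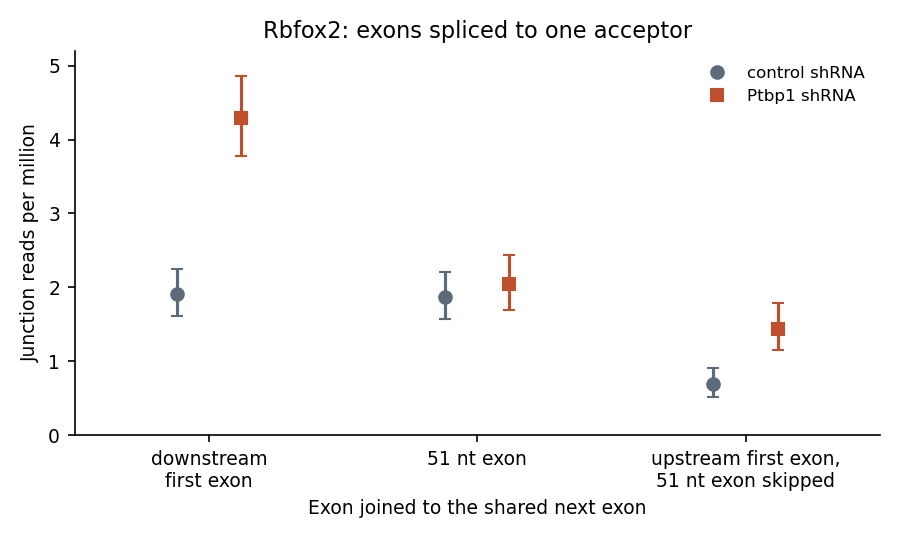
Junction RPM, with exact 95% Poisson intervals, on the 3 junctions that enter the same Rbfox2 acceptor, in the control library (grey circles) and the knockdown library (orange squares). Reads from the downstream first exon went from 1.91 to 4.29 RPM and those that skip the 51 nt exon from 0.699 to 1.44, while those from the 51 nt exon were 1.87 and 2.04.

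Toward the C terminus of Rbfox2 lie the exons of 40 and 43 nt, known as alternatives of brain and of muscle transcripts. PSI of the 40 nt exon was 93.8 and 87.0, with 206 and 36 inclusion reads against 12 for skipping in control cells, and 227 and 50 against 29 in knockdown cells. Inclusion by junction reads was 94.5% (90.6 to 96.8) and 88.7% (84.2 to 92.0), a difference of -5.82 points (-10.9 to -0.723), and -8.29 by the mean of both junctions. Fisher's exact test gave p = 0.0321 and an adjusted p = 0.179. PSI of the 43 nt exon was 3.8 and 13.1, with 2 and 0 inclusion reads against 21 in control cells, and 11 and 4 against 43 in knockdown cells. The difference by junction reads was 11.7 points (-8.36 to 25.7), Fisher's exact p = 0.323 and adjusted p = 0.772. The 40 nt exon was lower, by a difference whose Fisher's exact p was 0.179 after adjustment. The 43 nt exon was higher, and its difference was not detectable at this depth. Both trios have the same flanking exons, yet SpliceTrap lists 12 and 29 skipping reads for the 40 nt trio and 21 and 43 for the 43 nt trio. Each value is relative to its own trio, which leaves out transcripts with the other exon. The 43 nt values thus leave out the 206 and 227 left junction reads of the 40 nt exon. The share of the 43 nt exon among all Rbfox2 transcripts was not computed and lies below these values.

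The other segments of Rbfox2 differed little. The 93 nt exon in the RNA recognition motif, whose skipping gives a protein that does not bind RNA well, had 563 and 567 inclusion reads on its left junction, 0 and 2 skipping reads and PSI of 99.9 and 99.7. An acceptor choice of 12 nt had PSI of 44.4 and 44.3, with a junction difference of -0.779 points (-6.52 to 4.96). An acceptor choice of 3 nt had PSI of 87.5 and 85.7. Cufflinks moved the RefSeq isoforms far more. NM_001110830 went from 9.73 ppm (bounds 0 to 25.7) to 88.3 ppm (72.8 to 104), while NM_001110828, which is 12 nt longer, went from 75.3 ppm (60.4 to 90.2) to 61.4 ppm (43.9 to 78.8). An assembled transcript of 25.3 ppm with the same ends was present in the control library alone. Of 3 Rbfox2 segments in the constitutive class past 5 points, the 40 nt exon is the one just described. The 89 nt exon at 76916497 (PSI 33.8 and 50.4) had no skipping read in either library, and the 61 nt exon at 76933309 (49.4 and 40.4) had 1 in each. By junction reads the 61 nt exon was included in 99.3% and 99.2%, and the 89 nt exon, with 4 and 7 reads on its left junction, in 100% with Wilson intervals of 51 to 100 and 64.6 to 100.

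In Elavl2 the 39 nt exon lies in the linker before the last RNA recognition motif. PSI was 29.3 and 38.3, with 90 and 90 inclusion reads against 330 in control cells, and 114 and 65 against 181 in knockdown cells. By the left junction inclusion was 21.4% (17.8 to 25.6) and 38.6% (33.3 to 44.3), a difference of 17.2 points (10.4 to 24.0), and 11.7 by the mean of both junctions, with Fisher's exact p = 6.44e-07 and adjusted p = 1.38e-05. The exon that follows has acceptors 3 nt apart, and with both acceptors counted inclusion was 138 of 592 and 154 of 432 reads, 23.3% and 35.6%, a difference of 12.3 points (6.69 to 18.0). By the junction before the exon it was 19.6% and 22.6%, a difference of 2.92 points (-2.40 to 8.45). The higher inclusion therefore rests on the junction after the exon, and the junction before it gave a smaller difference whose interval spans 0. The choice of the acceptor itself, read from transcripts that skip the 39 nt exon, had PSI of 23.8 and 29.2 with a junction difference of 6.20 points (-0.565 to 13.1), Fisher's exact p = 0.079 and adjusted p = 0.721. As a mean over all trios that difference was 0.3 points.

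The start of Elavl2 transcripts gave another contrast between isoform estimates and junction reads. Transcripts from the upstream start had 44.0 and 52.6 ppm and those from the downstream start 89.7 ppm (summed bounds 76.5 to 103) and 46.8 ppm (38.1 to 55.6). On the acceptor that both starts share, at 90975545 of chromosome 4, the downstream first exon (91038591 to 91038746) had 90 of 234 reads and 52 of 146, 38.5% and 35.6%, a difference of -2.85 points (-12.5 to 7.19). The upstream one (91042627 to 91043187) had 51.3% and 55.5%, a difference of 4.20 points (-6.08 to 14.3). A shift between the starts was not detectable in the junction reads at this depth. For Elavl4 the first exons joined to 109924126 had shares of 75.1% and 78.0%, 14.9% and 13.6%, and 8.88% and 7.39%, and for Srrm3 the first exons joined to 136310910 had 88.4% and 90.7% of 95 and 108 reads. Each of these intervals spans 0.

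No alternative segment of Elavl4 or Elavl3 passed 5 points. The 39 nt exon of Elavl4, which matches that of Elavl2 in place and length, had PSI of 96.9 and 96.6, with 519 and 403 inclusion reads against 16 in control cells, and 596 and 431 against 23 in knockdown cells. The junction difference was -0.725 points (-2.85 to 1.46). The same exon position was thus mostly skipped in Elavl2 and nearly always included in Elavl4 in both libraries, with intervals of 17.8 to 25.6% and 95.2 to 98.2% in the control library. The 42 nt extension of the last Elavl4 exon had PSI of 46.9 and 49.9. In its own trio, inclusion rests on 255 and 306 reads across its boundary with the exon, which is not a splice junction. That trio lists no read on the junction from the 39 nt exon into the extension. Trios of the 39 nt exon list 416 and 438 reads there, and 519 and 596 on the junction to the shorter form. The junction difference of the acceptor trio was -4.61 points (-10.9 to 1.81), opposite in sign to the PSI difference of 3.0 points. Left counts of the other acceptor segments are boundary reads too. The 3 nt acceptor choice of Elavl3 had PSI of 87.0 and 84.9 and a junction difference of -2.33 points (-10.5 to 5.93), and its 6 constitutive segments moved by at most 0.3 points.

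**Figure D5:**
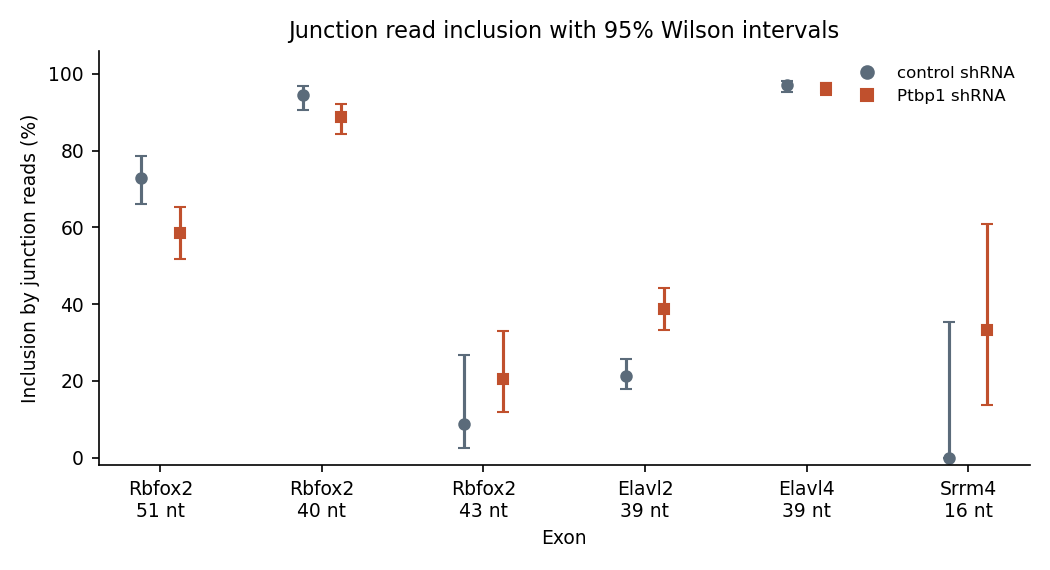
Inclusion of 6 exons from reads on the genomic left inclusion junction and the skipping junction, in percent with 95% Wilson intervals, in the control library (grey circles) and the knockdown library (orange squares). The intervals are apart for the Elavl2 39 nt and Rbfox2 51 nt exons and overlap for the Rbfox2 40 nt and 43 nt, the Elavl4 39 nt and the Srrm4 16 nt exons.

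In Srrm4 the largest PSI difference of all members rests on few reads. The 16 nt exon had PSI of 2.0 and 27.4, 25.4 points higher, with 0 inclusion and 7 skipping reads in control cells, and 4 and 8 in knockdown cells. SpliceTrap lists it in the constitutive class. The junction difference of 33.3 points has an interval of -7.12 to 60.9, and Fisher's exact p = 0.245 (adjusted p = 1), so the difference was not detectable at this depth. Its counterpart by sequence, the 20 nt exon of Srrm3, had 0 inclusion reads against 11 and 16 skipping reads, and PSI of 1.7 and 1.9. The Wilson intervals allow inclusion of up to 25.9% and 19.4%. A 347 nt exon of Srrm3 at 136344043 of chromosome 5 had PSI of 34.6 and 42.5 with no skipping read in either library, and a 63 nt exon at 136330238 had PSI of 0.0 in both although all its junction reads were inclusion reads. The remaining 11 Srrm4 segments had differences of 0.0 points.

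The 5 segments of Nova1 and Nova2 that passed, all constitutive, had differences between -1.1 and 0.0 points. The exons with the most reads were included in nearly all transcripts in both libraries. In Nova1 a 72 nt exon at 47814485 of chromosome 12 had 6291 and 7903 trio reads and PSI of 99.9 in both, and in Nova2 a 167 nt exon at 19535802 of chromosome 7 had 10095 and 11696 trio reads and PSI of 98.1 and 97.0. The best covered exons of Rbfox2 (73 nt), Elavl2 (226 nt), Elavl3 (39 nt), Elavl4 (226 nt), Srrm3 (138 nt) and Srrm4 (135 nt) had PSI between 98.5 and 99.9.

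Genes with exons that textbooks assign to these regulators were examined as lists of 27 genes, of which 20 had a cassette exon with enough reads. The lists were written with earlier results of these data known, so their shares cannot test for an excess over all cassette exons. Of their 46 cassette exons 12 were higher by 5 points or more (26.1%, against 16.1% of all) and 5 were lower (10.9%, against 14.6%), with a median of 0.7 points against 0.0. All cassette exons of a gene were counted, not only those known as targets. Examples were picked after their values were seen. In the Srrm4 list 3 of 8 exons were higher and 0 lower, namely a 27 nt exon of the formin Daam1 (PSI 30.3 and 70.1), a 21 nt exon of the translation factor Eif4g1 (28.9 and 56.9) and the 34 nt exon of Ptbp2 (80.9 and 96.5), which PTBP1 itself represses. In the Nova list 2 of 8 were higher and 0 lower, both of them exons of Agrn, which in neurons give the agrin that clusters acetylcholine receptors. These were a 24 nt exon (PSI 2.2 and 19.6) and a 33 nt exon (1.6 and 13). The trios of these exons share their flanking exons, and only 2 of the 6 Nova list genes had an exon with enough reads. In the Rbfox list 5 of 23 were higher and 3 lower, and in the Elavl list 2 of 7 and 2 of 7. With the junction interval on the same side of 0 these were 3 and 3 and 1 and 1. Those of the Srrm4 and Nova lists were 3 and 0 and 2 and 0. Those of all lists were 9 and 4 of 46, against 8.87% and 6.34% of all cassette exons. In Ank3 a 27 nt exon went from 8.4 to 59.4 and a 63 nt exon from 52.1 to 19.7. The members' levels and the knockdown of Ptbp1 change between the same 2 libraries and cannot be told apart as sources of these differences.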

How the data were processed

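RNA-seq of N2A cells was analysed from 1 library per condition, with conditions taken from the labels. Per the labels, libraries were strand specific, and the submitters' processing notes name CASAVA, TopHat and Cufflinks on mm9. The authors deposited SpliceTrap inclusion ratios as a fraction before and after correction, the count of reads on each junction, trio coverage, and Cufflinks FPKM with bounds and coverage (mean depth) per isoform. Versions are not given in the sources used here.

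PSI is the corrected fraction times 100, from the trio with the most reads per exon and class (at least 20 reads in each library). Abundance is depth times length of RefSeq transcripts, with extensions by Cufflinks, in ppm (per 1000000) of the library total. Log2 ratios used a pseudocount of 0.1 ppm, except for junction reads. RefSeq symbols matched 95.9% of identifiers. Transcripts without a RefSeq identifier held 39.6% and 41.8% of bases. The deposited FPKM bounds gave the relative bounds of the ppm values, and FPKM themselves served only as an alternative. Named were all members, their alternative segments past 5 points, constitutive ones past 10, the best covered exon of each, Ptbp1, Ptbp2 and listed genes past 2-fold. The starts of transcripts and some further segments were added after their values were seen. The members and lists were chosen with earlier results of these data known. Intervals were 95% Wilson, Newcombe and exact (Clopper-Pearson), and single exons were compared by two-sided Fisher's exact tests. Other settings were a pseudocount of 1 ppm or none, scaling by the median gene, assembled transcripts, summed FPKM, 10 or 50 reads, uncorrected ratios, junction PSI, 10 points and the mean over trios. Chosen after seeing the data were leaving out extended transcripts, junction RPM, no pseudocount for the count of genes, the mean of both junctions and the interval demand. In data simulated for 6477 cassette exons, 95% of 200 exons shifted by 20 points were recovered by Fisher's exact test and 0.143% of the others were called. The shifted exons were drawn only from those with at least 100 left plus skipping junction reads in each library. The recovered share therefore does not hold for exons with fewer reads. Software was matplotlib 3.10.9, SciPy 1.17.1 and pandas 2.3.3 with NumPy 2.4.6 under Python 3.11.15.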

Additional observations from a re-analysis of the deposited data

How the results depend on the processing

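The count of 0 members past 2-fold up became 1 with the sum of the isoform FPKM and 1 without a pseudocount, and was 0 under the other 6 settings run. The gene was Rbfox3, which is near 0 in both libraries, with log2 ratios of 2.10 and 2.23. None of these RefSeq and FPKM counts includes Srrm3, whose RefSeq transcript was listed at 0 in the control library and at 40.4 ppm in the knockdown library. At a threshold of 10 points 2 member exons were higher and 1 lower, in place of 7 and 4. The higher ones were the Srrm4 16 nt and Rbfox2 89 nt exons, whose junction differences were 33.3 points (-7.12 to 60.9) and 0.0 points (-35.4 to 49). The lower one was the Rbfox2 51 nt exon. With junction PSI from the mean of both junctions 4 were higher and 5 lower. With the junction interval on the same side of 0, 2 were higher, both of them the Elavl2 39 nt exon in its 2 classes. In that setting 3 were lower, the Rbfox2 51 nt exon and the Rbfox2 40 nt exon in its 2 classes. Of 117 alternative values for single genes and exons, 104 stayed within their bounds or intervals, 13 did not and 0 turned called values around. For exons the allowance was the wider arm of the junction interval, which is large where reads are few. The 104 thus include the Rbfox2 89 nt exon, at 16.6 points by PSI and 0.0 by junction reads. They also include the Srrm3 347 nt exon, at 7.9 and 0.0 points. The cause of these moves was not tested. No paired analysis was possible because each condition has 1 library, and no library could be left out. Depth limits the Rbfox2 43 nt, Srrm3 20 nt and Srrm4 16 nt exons.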
